A study of Sus scrofa with 12 samples.

Results

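The genes of the citric acid cycle and of mitochondrial fatty acid oxidation were followed in longissimus dorsi, a back muscle, of Laiwu and Yorkshire pigs. The set holds 39 genes, taken by gene name from the 23271 listed in the deposited table. Of these, 20 encode the pyruvate dehydrogenase complex and the cycle, and 19 encode the entry of fatty acids into mitochondria and their oxidation. All 39 names were found once in the table. Laiwu pigs are a Chinese breed with much fat within the muscle, and Yorkshire pigs are a lean Western one. Poly(A) RNA was sequenced in 6 Laiwu and 6 Yorkshire libraries, from animals described as equal in weight, and the labels name no treatment or genetic change. The sources used here give no age, sex, feeding before slaughter or slaughter day. The labels give a breed and a number per library and do not say that each came from its own animal, so the p-values reflect spread between samples that may be technical.

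In the cycle, acetyl-CoA is joined to oxaloacetate and oxidised to carbon dioxide, and the electrons released pass to the respiratory chain. The acetyl-CoA comes from pyruvate, through pyruvate dehydrogenase, and from fatty acids, through beta-oxidation. Long fatty acids cross into mitochondria as carnitine esters, a step that malonyl-CoA inhibits, and muscle draws on this route at rest, in fasting and in prolonged work.

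Depth was 54961358 to 67285809 counts per library, and the 39 genes took 0.437% (Laiwu 4) to 0.626% (Laiwu 3) of a library's counts. The lowest count of any member in any library was 100, so none lay near the limit of 3 counts that a count of 0 allows. All 39 passed the minimum of 0.5 FPKM (counts scaled by the length of the gene and the size of the library) that was set as a mean over the 12 libraries. The labelled tissue was checked with 5 myofibre genes, which include ACTA1 and CKM. Their summed level was 53867 to 72801 FPKM in Laiwu and 56499 to 78278 FPKM in Yorkshire. Some libraries were much more alike than others over all genes, also across breeds. Of 66 pairs, compared by a chi-square of their counts that would average about 1 per gene under sampling noise, the 3 closest joined Laiwu 2, Yorkshire 1 and Yorkshire 4, with 25.8 for Yorkshire 1 with Yorkshire 4, 26.1 for Laiwu 2 with Yorkshire 4 and 30.2 for Laiwu 2 with Yorkshire 1. Laiwu 4 with Yorkshire 2 (30.9) and Laiwu 1 with Yorkshire 6 (38.9) followed, and every other pair was at 60.6 or more. The labels give no batch, and what these libraries share was not tested.

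Laiwu and Yorkshire muscle did not differ detectably in any of the 39 genes. By the quasi-likelihood test of edgeR, with Benjamini-Hochberg adjustment over 11205 tested genes, 0 of 39 passed an adjusted p of 0.05, and 0% of all tested genes did. At an unadjusted p of 0.05 the members again gave 0 of 39, against 4.44% of all tested genes, and DESeq2 and limma also gave 0 of 39 at either threshold. Of the 39, 22 had a log2 fold change (Laiwu over Yorkshire) above 0 and 17 one below 0, with a median of 0.03. Over all tested genes 49.7% were above 0 and the median was -0.0013. The FPKM ranges of the breeds overlapped for all 39, and also for all but 20 of the 11205 tested genes.

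The width of the fitted differences shows what these libraries could resolve. The 95% interval of the log2 fold change lay within 1 in either direction for 38 of 39 genes, so a 2-fold difference lay outside it, and within 1.5-fold for 35 of 39. MLYCD was the exception to the wider bound, with an interval of -0.84 to 2.09. Of all 11205 tested genes, 10090 had an interval within the wider bound and 7100 within the narrower. By role, the 4 pyruvate dehydrogenase genes had 4 of 4 above 0 (median 0.15), the 16 cycle genes 5 of 16 (median -0.02), the 4 genes of carnitine entry 4 of 4 (median 0.16) and the 15 of oxidation 9 of 15 (median 0.08). No test was made of these counts. They moved with single libraries and with the scaling: of the 39, 16 were above 0 without Laiwu 3 and 32 without Laiwu 4, and 26 with library totals in place of TMM factors. By limma on log2(FPKM + 1) 27 were above 0.

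**Figure D1:**
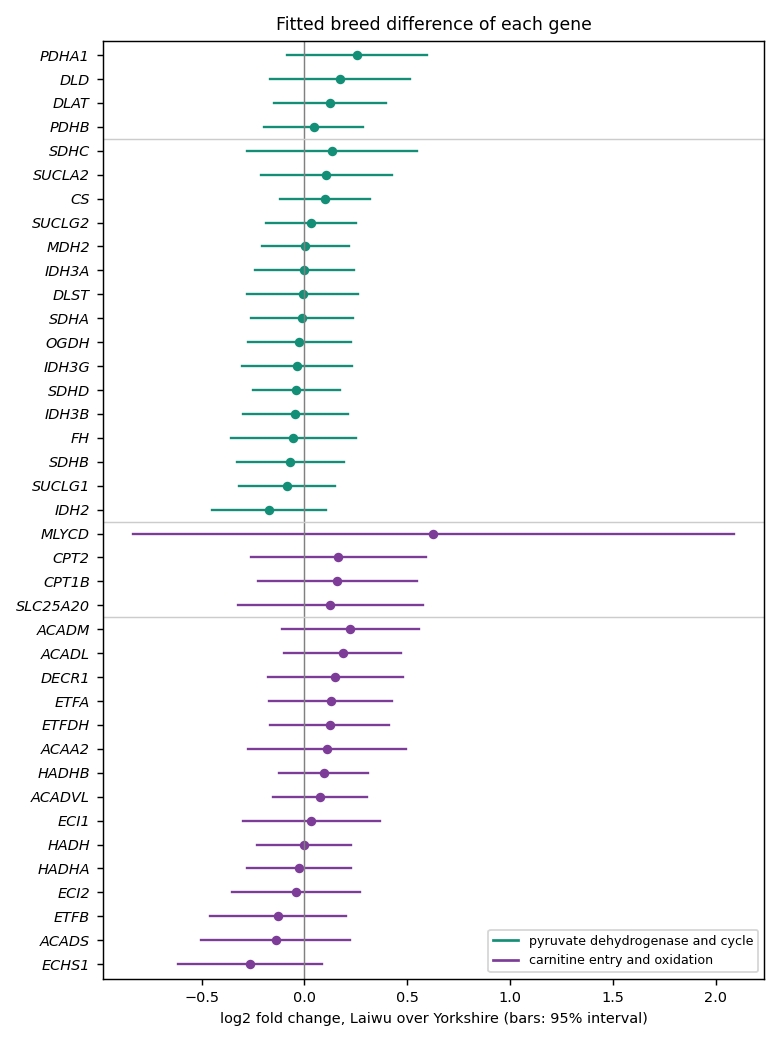
Fitted log2 fold change of each of the 39 genes, Laiwu over Yorkshire, on the x axis, with points for the edgeR estimate and bars for its 95% interval, in green for pyruvate dehydrogenase and the cycle and in purple for carnitine entry and oxidation. Every bar crosses 0, and the widest, that of MLYCD, runs from -0.84 to 2.09.

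Levels per gene length spanned a wide range within the set. Means over the 12 libraries went from 2.23 FPKM for CPT2 to 212 FPKM for MDH2, with a median of 43.0 FPKM over the 20 cycle genes and 19.8 FPKM over the 19 oxidation genes. The cycle genes summed to 1009 to 1404 FPKM in Laiwu and 1059 to 1295 FPKM in Yorkshire. The oxidation genes summed to 409 to 576 FPKM in Laiwu and 402 to 477 FPKM in Yorkshire. In bulk muscle, fewer cells of a type and less RNA per cell cannot be told apart.

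**Figure D2:**
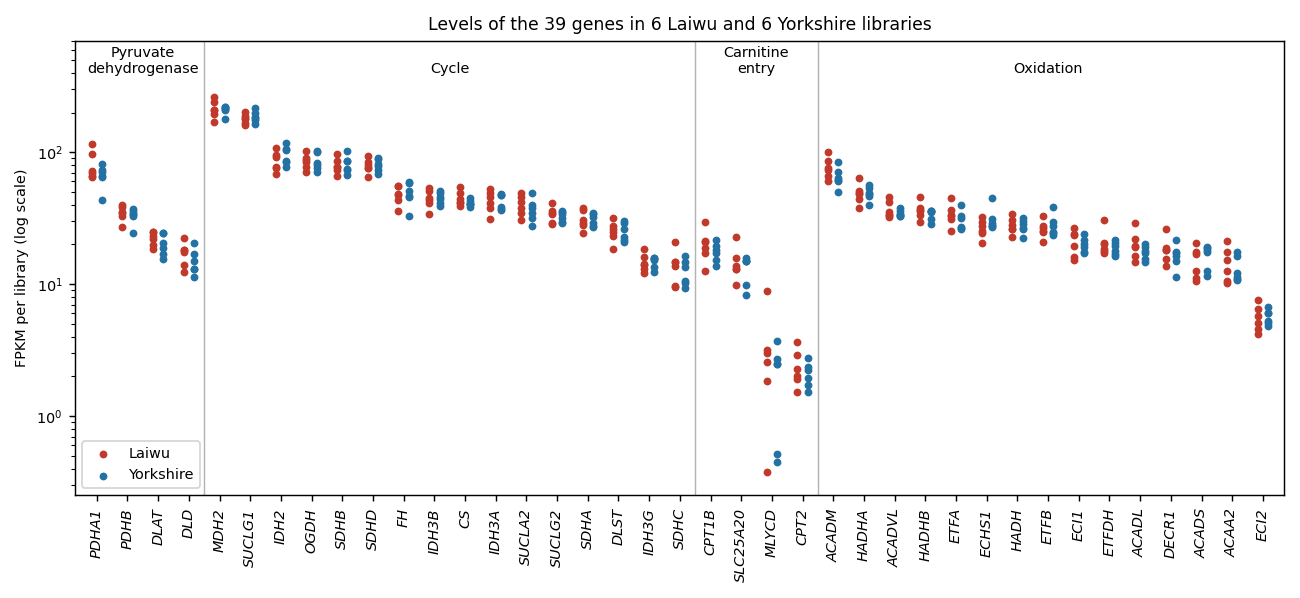
FPKM of each of the 39 genes on a log axis, with 1 point per library, Laiwu in red to the left of Yorkshire in blue, ordered by role and by mean level. The breeds overlap for every gene, as they did for all but 20 of the 11205 tested genes. MLYCD is spread far more widely than its neighbours, from 0.377 to 8.88 FPKM.

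Pyruvate dehydrogenase turns pyruvate into acetyl-CoA. PDHA1 (ENSSSCG00000023643; Sscrofa11.1 chromosome X, 15700083 to 15718903), the catalytic alpha subunit, ran from 64.9 to 115 FPKM in Laiwu (median 71.1) and from 43.6 to 81.4 FPKM in Yorkshire (median 68.1). Laiwu 3 and Laiwu 6, at 115 and 97.1 FPKM, stood above every Yorkshire library, and Yorkshire 5, at 43.6 FPKM, stood below every Laiwu library. The log2 fold change of PDHA1 was 0.25 ± 0.16 (SE), with an adjusted p of 0.912 by edgeR with Benjamini-Hochberg adjustment. It was 0.14 without Laiwu 3, 0.17 without Yorkshire 5 and 0.305 without Yorkshire 4. PDHB, the beta subunit that forms the same enzyme with PDHA1, held 27.0 to 39.7 FPKM in Laiwu and 24.6 to 36.8 FPKM in Yorkshire.

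DLD (ENSSSCG00000015443; Sscrofa11.1 chromosome 9, 107642095 to 107673583), the dihydrolipoamide dehydrogenase that this complex shares with the alpha-ketoglutarate dehydrogenase of the cycle, ran from 12.4 to 22.4 FPKM in Laiwu (median 17.7) and from 11.3 to 20.6 FPKM in Yorkshire (median 13.9). Its highest Yorkshire library, Yorkshire 4 at 20.6 FPKM, lay above all Laiwu libraries but Laiwu 3. The log2 fold change of DLD was 0.17 ± 0.16 (SE), with an adjusted p of 0.918 (edgeR, Benjamini-Hochberg), and it ranged from 0.09 without Laiwu 3 to 0.27 without Yorkshire 4, with 0.10 without Yorkshire 3 and 0.11 without Yorkshire 5. DLAT, the acetyltransferase at the core of the complex, ran from 18.3 to 24.9 FPKM in Laiwu (median 22.6) and from 15.4 to 24.4 FPKM in Yorkshire (median 19.7). The breeds overlapped over most of that range. Its log2 fold change was 0.12 ± 0.13 (SE), with an adjusted p of 0.918 (edgeR, Benjamini-Hochberg). That fold change was 0.05 without Yorkshire 3, 0.07 without Yorkshire 5 and 0.18 without Yorkshire 1. From start to end, introns included, DLAT shares 6212 bases with SDHD and 12294 with NKAPD1 on the same strand of chromosome 9. SDHD stood at 79.8 FPKM, DLAT at 21.1 FPKM and NKAPD1 at 5.03 FPKM. Whether exons overlap, and how reads there were divided, was not examined.

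Of the 16 cycle genes, IDH2 had the fitted difference farthest from 0. IDH2 (ENSSSCG00000001852; Sscrofa11.1 chromosome 7, 55654303 to 55675554), the NADP-linked isocitrate dehydrogenase of mitochondria, ran from 68.2 to 107 FPKM in Laiwu (median 84.7) and from 76.9 to 117 FPKM in Yorkshire (median 94.8). The lowest level was in Laiwu 4 and the highest in Yorkshire 3, and Laiwu 3, at 107 FPKM, lay among the high Yorkshire libraries. The log2 fold change was -0.17 ± 0.13 (SE), with an adjusted p of 0.912 (edgeR, Benjamini-Hochberg), and it stayed below 0 with each library left out, from -0.23 to -0.12. The NAD-linked isocitrate dehydrogenase has a catalytic subunit, IDH3A, and the partners IDH3B and IDH3G. IDH3A held 31.3 to 52.8 FPKM in Laiwu and 36.4 to 48.2 FPKM in Yorkshire. IDH3B held 33.7 to 53.8 FPKM in Laiwu and 39.1 to 51.1 FPKM in Yorkshire. IDH3G was lower, with 12.1 to 18.3 FPKM in Laiwu and 12.3 to 15.8 FPKM in Yorkshire.

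CS (ENSSSCG00000035686; Sscrofa11.1 chromosome 5, 21666585 to 21700711), citrate synthase, which opens the cycle and is widely used as a measure of mitochondrial content, ran from 39.1 to 54.8 FPKM in Laiwu (median 43.1) and from 38.5 to 45.0 FPKM in Yorkshire (median 40.7). All 6 Yorkshire libraries lay within 38.5 to 45.0 FPKM, and Laiwu 3 and Laiwu 6, at 54.8 and 49.1 FPKM, were above them. For CS the log2 fold change was 0.10 ± 0.10 (SE), with an adjusted p of 0.918 (edgeR, Benjamini-Hochberg) and a 95% interval of -0.12 to 0.32. That fold change was 0.05 without Laiwu 3, 0.06 without Yorkshire 3 and 0.14 without Yorkshire 6. MDH2, the malate dehydrogenase that closes the cycle and the member of highest level, ran from 171 to 260.3 FPKM in Laiwu (median 210.4) and from 180.1 to 221 FPKM in Yorkshire (median 215). The Laiwu libraries were spread over a wider range of MDH2 than the Yorkshire ones, 5 of which lay between 210.0 and 221 FPKM.

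SUCLG1 (ENSSSCG00000008247; Sscrofa11.1 chromosome 3, 60142435 to 60177378), the alpha subunit of succinyl-CoA ligase, had the narrowest spread of the set, 1.35-fold between its lowest and highest library. It ran from 161 to 200.1 FPKM in Laiwu (median 180.0) and from 162 to 216 FPKM in Yorkshire (median 183). Its log2 fold change was -0.08 ± 0.11 (SE), with an adjusted p of 0.923 (edgeR, Benjamini-Hochberg). That small difference was -0.02 without Yorkshire 5, -0.15 without Yorkshire 3 and -0.05 without Laiwu 5, without Yorkshire 6 or by limma. SUCLA2, the beta subunit that forms ATP, held 30.6 to 49.0 FPKM in Laiwu and 27.4 to 48.8 FPKM in Yorkshire. SUCLG2, the beta subunit that forms GTP, held 28.6 to 41.3 FPKM in Laiwu and 29.0 to 35.9 FPKM in Yorkshire. The ratio of SUCLA2 to SUCLG2 in FPKM was 1.18 ± 0.128 in Laiwu and 1.12 ± 0.146 in Yorkshire (SD, n = 6 each), so the difference was smaller than the spread within a breed.

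OGDH, the dehydrogenase of the alpha-ketoglutarate dehydrogenase complex, had 85.6 ± 10.9 FPKM in Laiwu, against 85.7 ± 13.1 FPKM in Yorkshire (mean ± SD, n = 6 each). DLST, its succinyltransferase, had 25.4 ± 4.44 FPKM in Laiwu, against 25.1 ± 3.95 FPKM in Yorkshire (mean ± SD, n = 6 each). Succinate dehydrogenase serves the cycle and the respiratory chain, and its subunits stood at unequal levels in both breeds. SDHB, the iron-sulphur subunit, had 79.3 ± 10.9 FPKM in Laiwu, against 81.7 ± 12.6 FPKM in Yorkshire (mean ± SD, n = 6 each). SDHD, a membrane anchor, had 79.3 ± 9.75 FPKM in Laiwu, against 80.2 ± 8.35 FPKM in Yorkshire (mean ± SD, n = 6 each). These 2 were the highest subunits in both breeds. SDHA, the flavin subunit, had 31.1 ± 5.12 FPKM in Laiwu, against 30.7 ± 3.27 FPKM in Yorkshire (mean ± SD, n = 6 each). SDHC, the other anchor, had 13.9 ± 4.20 FPKM in Laiwu, against 12.4 ± 2.83 FPKM in Yorkshire (mean ± SD, n = 6 each). FH, fumarase, had 47.7 ± 7.51 FPKM in Laiwu, against 48.9 ± 9.88 FPKM in Yorkshire (mean ± SD, n = 6 each). In each of these 7 genes the difference between the breed means was smaller than the SD within either breed.

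Of the genes that admit fatty acids to mitochondria, MLYCD varied far the most between libraries, in both breeds. MLYCD (ENSSSCG00000031450; Sscrofa11.1 chromosome 6, 4681664 to 4698661), malonyl-CoA decarboxylase, removes the inhibitor of carnitine palmitoyltransferase. In Laiwu it was at 3.03, 0.377, 8.88, 2.56, 3.18 and 1.86 FPKM in libraries 1 to 6. In Yorkshire it was at 0.451, 2.72, 2.47, 0.514, 3.69 and 2.49 FPKM. Laiwu 2, Yorkshire 1 and Yorkshire 4 stood far below the other 9 libraries, so low libraries occurred in both breeds. The range from lowest to highest was 23.6-fold, against a median of 1.94-fold over the 19 oxidation genes and 1.605-fold over the 20 cycle genes. Over all tested genes above 0 in every library the median was 2.01-fold. CPT1B ranged 2.36-fold, CPT2 2.38-fold and SLC25A20 2.75-fold. The log2 fold change of MLYCD was 0.63 ± 0.67 (SE), with an adjusted p of 0.919 (edgeR, Benjamini-Hochberg). It was 0.07 without Laiwu 3, 0.41 without Yorkshire 1, 0.90 without Yorkshire 5 and 0.39 by limma on log2(FPKM + 1).

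CPT1B (ENSSSCG00000022364; Sscrofa11.1 chromosome 5, 155643 to 163531), the muscle form of the outer carnitine palmitoyltransferase, ran from 12.6 to 29.8 FPKM in Laiwu (median 19.8) and from 13.8 to 21.7 FPKM in Yorkshire (median 17.8). The same libraries were lowest: Laiwu 2 at 12.6, Yorkshire 1 at 13.8 and Yorkshire 4 at 15.2 FPKM, with the next, Yorkshire 5, at 17.3 FPKM. SLC25A20 (ENSSSCG00000011366; Sscrofa11.1 chromosome 13, 31523821 to 31553286), the carrier that exchanges acylcarnitine for carnitine across the inner membrane, ran from 9.92 to 22.8 FPKM in Laiwu (median 13.4) and from 8.30 to 15.8 FPKM in Yorkshire (median 14.9). Its lowest values were 9.92 FPKM in Laiwu 2, 8.30 in Yorkshire 1 and 9.87 in Yorkshire 4, with the next, Laiwu 5, at 13.0 FPKM. CPT2, the inner transferase, held 1.53 to 3.63 FPKM in Laiwu and 1.52 to 2.74 FPKM in Yorkshire, and there Laiwu 2, Yorkshire 1 and Yorkshire 4 lay mid-range at 2.29, 2.35 and 2.25 FPKM. Laiwu 3 was the highest library for all 4 genes of this step.

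**Figure D3:**
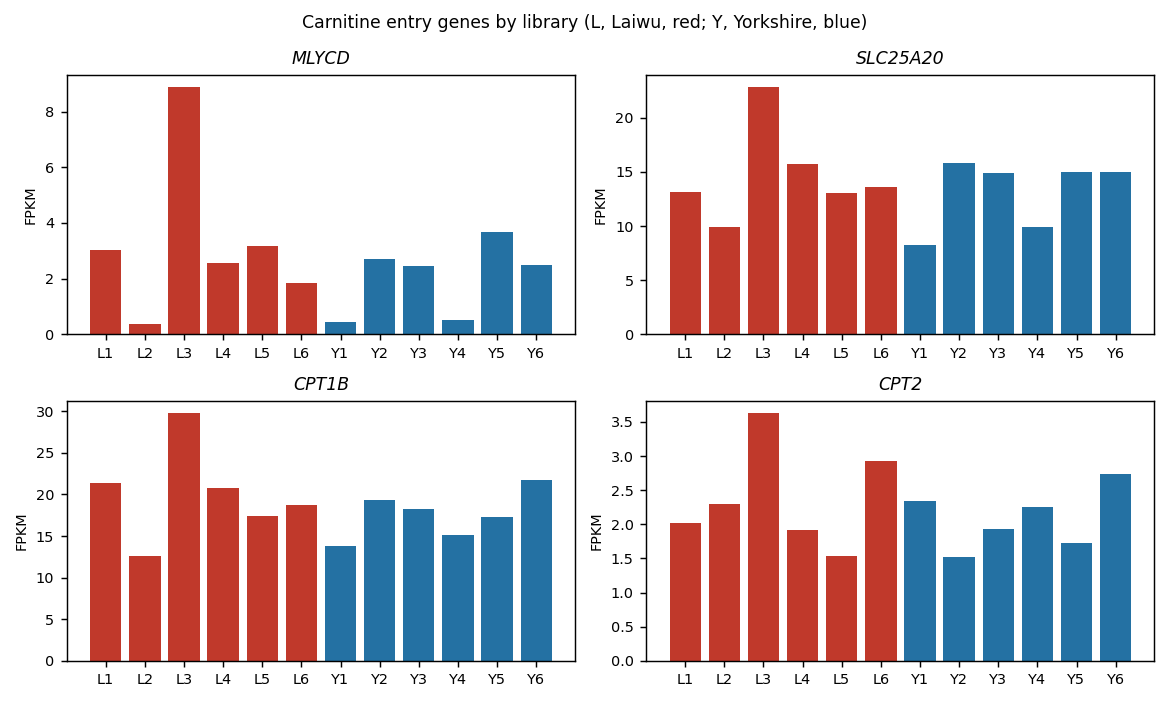
FPKM of MLYCD, SLC25A20, CPT1B and CPT2 in each library, 1 bar per library on axes that start at 0, with Laiwu (L1 to L6) in red to the left of Yorkshire (Y1 to Y6) in blue. L2, Y1 and Y4 have the shortest bars for MLYCD, SLC25A20 and CPT1B but not for CPT2, and L3 has the tallest bar in each panel.

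The acyl-CoA dehydrogenases take the first step of each round of oxidation and differ in the chain length they accept. ACADM (ENSSSCG00000003776; Sscrofa11.1 chromosome 6, 137541381 to 137595108), the medium-chain enzyme and the highest oxidation gene by FPKM, ran from 60.9 to 101 FPKM in Laiwu (median 74.6) and from 49.8 to 84.8 FPKM in Yorkshire (median 62.7). The top library was Laiwu 1 and the lowest Yorkshire 1. For ACADM the log2 fold change was 0.22 ± 0.16 (SE), with an adjusted p of 0.912 (edgeR, Benjamini-Hochberg). That fold change was 0.11 without Laiwu 1 and 0.33 without Yorkshire 6. ACADL (ENSSSCG00000016156; Sscrofa11.1 chromosome 15, 112933506 to 112969577), the long-chain enzyme, ran from 14.8 to 29.1 FPKM in Laiwu (median 19.3) and from 14.8 to 20.1 FPKM in Yorkshire (median 17.4), and only Laiwu 3 and Laiwu 6 were above the highest Yorkshire library. The log2 fold change of ACADL was 0.18 ± 0.13 (SE), with an adjusted p of 0.912 (edgeR, Benjamini-Hochberg). That fold change was 0.06 without Laiwu 3 and 0.25 without Laiwu 4. ACADVL, for very long chains, had 37.0 ± 5.51 FPKM in Laiwu, against 34.4 ± 1.96 FPKM in Yorkshire (mean ± SD, n = 6 each). ACADS, for short chains, had 14.9 ± 4.06 FPKM in Laiwu, against 16.3 ± 3.37 FPKM in Yorkshire (mean ± SD, n = 6 each).

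The steps that follow belong for long chains to the trifunctional protein. HADHA, its hydratase and dehydrogenase subunit, held 38.0 to 63.8 FPKM in Laiwu and 39.7 to 56.6 FPKM in Yorkshire. HADHB (ENSSSCG00000008569; Sscrofa11.1 chromosome 3, 112712919 to 112753086), its thiolase subunit, ran from 29.4 to 45.8 FPKM in Laiwu (median 36.2) and from 28.4 to 36.1 FPKM in Yorkshire (median 35.4). Laiwu 1, Laiwu 3 and Laiwu 6 were above the highest Yorkshire library, and the other 3 Laiwu libraries lay within the Yorkshire range. Its log2 fold change was 0.09 ± 0.10 (SE), with an adjusted p of 0.919 (edgeR, Benjamini-Hochberg), or 0.03 without Laiwu 3 and 0.14 without Laiwu 4. The genes of both subunits lie on opposite strands and overlap by 222 bases. HADHA stood 1.34 ± 0.101 times as high as HADHB in Laiwu and 1.46 ± 0.193 times in Yorkshire (SD, n = 6 each), a difference smaller than the SD within Yorkshire and larger than that within Laiwu.

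For shorter chains ECHS1 (ENSSSCG00000038086; Sscrofa11.1 chromosome 14, 141339364 to 141348994), the short-chain enoyl-CoA hydratase, had the smallest p of the 39 genes. It ran from 20.4 to 32.2 FPKM in Laiwu (median 26.3) and from 27.2 to 44.8 FPKM in Yorkshire (median 28.4). Yorkshire 5, at 44.8 FPKM, stood apart from the other Yorkshire libraries, the highest of which was 31.4 FPKM. The log2 fold change was -0.27 ± 0.16 (SE), with an adjusted p of 0.912 and an unadjusted p of 0.125 (edgeR, Benjamini-Hochberg). That fold change was -0.12 without Yorkshire 5 and -0.35 without Laiwu 1. HADH, the dehydrogenase that follows, had 28.1 ± 3.88 FPKM in Laiwu, against 27.6 ± 3.40 FPKM in Yorkshire (mean ± SD, n = 6 each). ACAA2, the thiolase, had 14.5 ± 4.22 FPKM in Laiwu, against 13.2 ± 3.00 FPKM in Yorkshire (mean ± SD, n = 6 each). DECR1 (ENSSSCG00000006126; Sscrofa11.1 chromosome 4, 46731360 to 46767415), the dienoyl-CoA reductase needed for unsaturated chains, ran from 13.8 to 26.3 FPKM in Laiwu (median 18.2) and from 11.2 to 21.4 FPKM in Yorkshire (median 16.7). Laiwu 3 was its highest and Yorkshire 5 its lowest library. Its log2 fold change was 0.15 ± 0.15 (SE), with an adjusted p of 0.918 (edgeR, Benjamini-Hochberg), or 0.04 without Laiwu 3, 0.23 without Yorkshire 4 and 0.07 without Yorkshire 5. Of the isomerases of unsaturated chains, ECI1 had 20.9 ± 4.68 FPKM in Laiwu, against 19.98 ± 2.62 FPKM in Yorkshire (mean ± SD, n = 6 each). ECI2 had 5.61 ± 1.29 FPKM in Laiwu, against 5.65 ± 0.747 FPKM in Yorkshire (mean ± SD, n = 6 each).

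Electrons from the dehydrogenases pass to electron transfer flavoprotein, made of ETFA and ETFB, and on through ETFDH to the respiratory chain. ETFA had 34.0 ± 6.60 FPKM in Laiwu, against 30.7 ± 5.16 FPKM in Yorkshire (mean ± SD, n = 6 each). ETFB had 26.3 ± 3.90 FPKM in Laiwu, against 28.1 ± 5.59 FPKM in Yorkshire (mean ± SD, n = 6 each). ETFDH had 20.8 ± 4.94 FPKM in Laiwu, against 18.8 ± 2.11 FPKM in Yorkshire (mean ± SD, n = 6 each). In these 3 genes the breed means differed by less than the SD within Laiwu. The subunits ETFA and ETFB did not keep a fixed ratio: it was 1.80 in Laiwu 3 and 0.704 in Yorkshire 5, with breed medians of 1.22 in Laiwu and 1.08 in Yorkshire. ETFDH was highest in Laiwu 3, at 30.5 FPKM, and lowest in Yorkshire 1, at 16.3 FPKM.

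Oxidation and cycle genes were then set against each other within each library, as the mean log2 FPKM of the 19 oxidation genes minus that of the 20 cycle genes, a difference that does not move with the scaling of the library. The mean was -1.33 ± 0.14 in Laiwu and -1.38 ± 0.20 in Yorkshire (SD, n = 6 each). The difference of 0.05 between breeds was smaller than the SD of 0.17 within breeds. It was -0.0003 without Yorkshire 1, 0.005 without Yorkshire 4, 0.02 without Laiwu 3, 0.09 without Yorkshire 5 and 0.11 without Laiwu 2, and it turned to -0.01 with the median over genes in place of the mean. Within breeds the libraries fell far apart. Laiwu 2 was at -1.59 and the other 5 Laiwu libraries between -1.36 and -1.17. Yorkshire 1 and Yorkshire 4 were at -1.64 and -1.62 and the other 4 Yorkshire libraries between -1.29 and -1.18. With MLYCD left out, an alternative chosen after seeing the data, the 3 lowest libraries were the same, at -1.30 in Laiwu 2, -1.36 in Yorkshire 1 and -1.34 in Yorkshire 4. The other 9 then lay between -1.17 and -1.05. The balance is low where oxidation genes are low or cycle genes are high. Of 20 cycle genes, 14, 14 and 18 lay above their median over the 12 libraries in Laiwu 2, Yorkshire 1 and Yorkshire 4. Of 19 oxidation genes, 7, 7 and 8 did. The mean log2 FPKM of the cycle genes deviated from its mean over libraries by 0.04, 0.09 and 0.16. That of the oxidation genes, MLYCD included, deviated by -0.20, -0.20 and -0.10. MLYCD itself deviated by -2.33, -2.07 and -1.885, which lowers the mean of the oxidation genes in these libraries. How far the mean of the other oxidation genes deviated was not computed, so the values do not show that they were low.

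**Figure D4:**
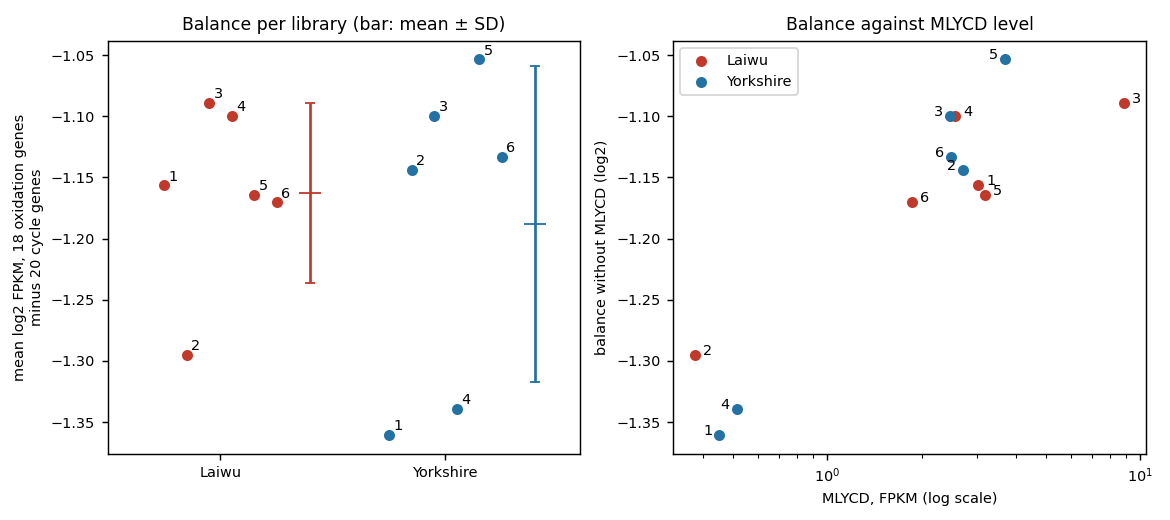
Left, the balance of each library, that is the mean log2 FPKM of 18 oxidation genes without MLYCD minus that of the 20 cycle genes, with the library number beside each point and the breed mean ± SD as a bar. Right, the same balance against MLYCD in FPKM on a log axis: Laiwu 2, Yorkshire 1 and Yorkshire 4 sit low on both axes. These libraries are singled out after their values were seen. The balance shown leaves out MLYCD but holds CPT1B, SLC25A20, ETFB and ETFDH, which were also lowest there. Of the 20 cycle genes, 14, 14 and 18 lay above their median over libraries in Laiwu 2, Yorkshire 1 and Yorkshire 4.

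Laiwu 2, Yorkshire 1 and Yorkshire 4, the 3 libraries most alike over all genes, are singled out here after their values were seen, so their values are a description without a test. They held the 3 lowest FPKM values of the 12 libraries for 5 of 19 oxidation genes (CPT1B, SLC25A20, MLYCD, ETFB and ETFDH) and for 0 of 20 cycle genes. Over all tested genes the share was 3.29%. They held the 3 highest values for 1 of 20 cycle genes, FH, and for 0 of 19 oxidation genes, against 4.52% of all tested genes. The margin differed between genes: ETFB was at 20.7, 23.7 and 24.6 FPKM in Laiwu 2, Yorkshire 1 and Yorkshire 4, and the next library, Yorkshire 3, was at 24.9 FPKM. In the cycle, OGDH was at 91.2, 103 and 101 FPKM in these libraries, within the top 4 of the 12 with Laiwu 6. Total counts of the 3 libraries were 64662634, 65667092 and 63297364, within the range of the others.

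Few partners of the pathway outside the 39 genes had their 3 lowest values in these libraries: 1 of 25 tested genes around pyruvate and the cycle (PDK4) and 2 of 29 of fatty acid activation and other oxidation (CPT1A and PPARD), or 4% and 6.90%, against 3.29% of all tested genes. The 3 highest values lay there for 1 of the 25, PCK2, the mitochondrial enzyme that makes phosphoenolpyruvate from oxaloacetate, and for 1 of the 29, EHHADH, a peroxisomal oxidation enzyme. EHHADH was at 10.6, 9.57 and 10.7 FPKM in Laiwu 2, Yorkshire 1 and Yorkshire 4, and the next library, Laiwu 6, at 9.53 FPKM. These genes are named after their values were seen. PDK4, the kinase that switches pyruvate dehydrogenase off, was at 2.51 FPKM in Laiwu 2, 2.30 in Yorkshire 1 and 2.33 in Yorkshire 4. The lowest of the other 9 libraries was Laiwu 4 at 10.9 FPKM and the highest Laiwu 3 at 156 FPKM. CPT1A, the liver form of the outer transferase, and PPARD, a nuclear receptor for fatty acids, complete the 3 genes lowest there. PPARD was at 4.26, 4.29 and 3.66 FPKM in Laiwu 2, Yorkshire 1 and Yorkshire 4, and the next library, Laiwu 5, at 5.501 FPKM. CPT1A was at 0.5002, 0.615 and 0.465 FPKM, close to Yorkshire 5 at 0.640 FPKM. Of 9 tested adipocyte markers, PPARG and CIDEA were lowest in the same libraries, and of 10 slow fibre markers none was. The summed adipocyte markers were 81.1 FPKM in Laiwu 2, 103 in Yorkshire 1 and 75.6 in Yorkshire 4, and Yorkshire 5, without low MLYCD, had 70.0 FPKM. The part of these markers in the pattern was not tested.

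A few libraries held most of the extreme values of the 39 genes. Laiwu 3 was the highest of the 12 for 21 of 39 genes and Laiwu 6 for 10, while Laiwu 4 was the lowest for 16, Yorkshire 2 for 7 and Yorkshire 5 for 5. The same counts over all tested genes were not made, so these need not be particular to the 39. A shift of many genes within a library was not tested. The SD of log2 FPKM over the 12 libraries had a median of 0.20 over cycle genes and 0.27 over oxidation genes, beside 0.24 over the 4648 tested genes that averaged at least 5 FPKM and were above 0 in every library. In Laiwu 3, 19 of 20 cycle genes and 16 of 19 oxidation genes lay above their own median over the 12 libraries, while ECHS1, at 20.4 FPKM, was at its lowest there. In Laiwu 4, 1 of 20 cycle genes and 4 of 19 oxidation genes lay above their median.

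Yorkshire 5 differed in kind, with high and low members side by side. ECHS1, ETFB, SDHB and SUCLG1 were at their highest there and PDHA1, DLD, DLAT, SUCLA2 and DECR1 at their lowest. The ratio of SUCLG1 to SUCLA2 was 7.88 in Yorkshire 5, 3.72 to 5.21 in the other Yorkshire libraries and 3.82 to 5.75 in Laiwu. That of PDHA1 to PDHB was 1.19 in Yorkshire 5, 1.905 to 2.67 in the other Yorkshire libraries and 1.902 to 2.97 in Laiwu. By gene length, the 10 shortest members, 1166 to 2227 bases, had a median deviation from their means of 0.16 (log2) in Yorkshire 5. The 10 longest, 4523 to 8747 bases, had one of -0.04. ECHS1, ETFB, SDHB and SUCLG1 are among the shortest and DLD and SUCLA2 among the longest, so these medians partly repeat the values above. In Laiwu 3 the shortest had 0.18 and the longest 0.30, and in Yorkshire 4 they had 0.02 and 0.19. The part of gene length in these values was not tested.

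**Figure D5:**
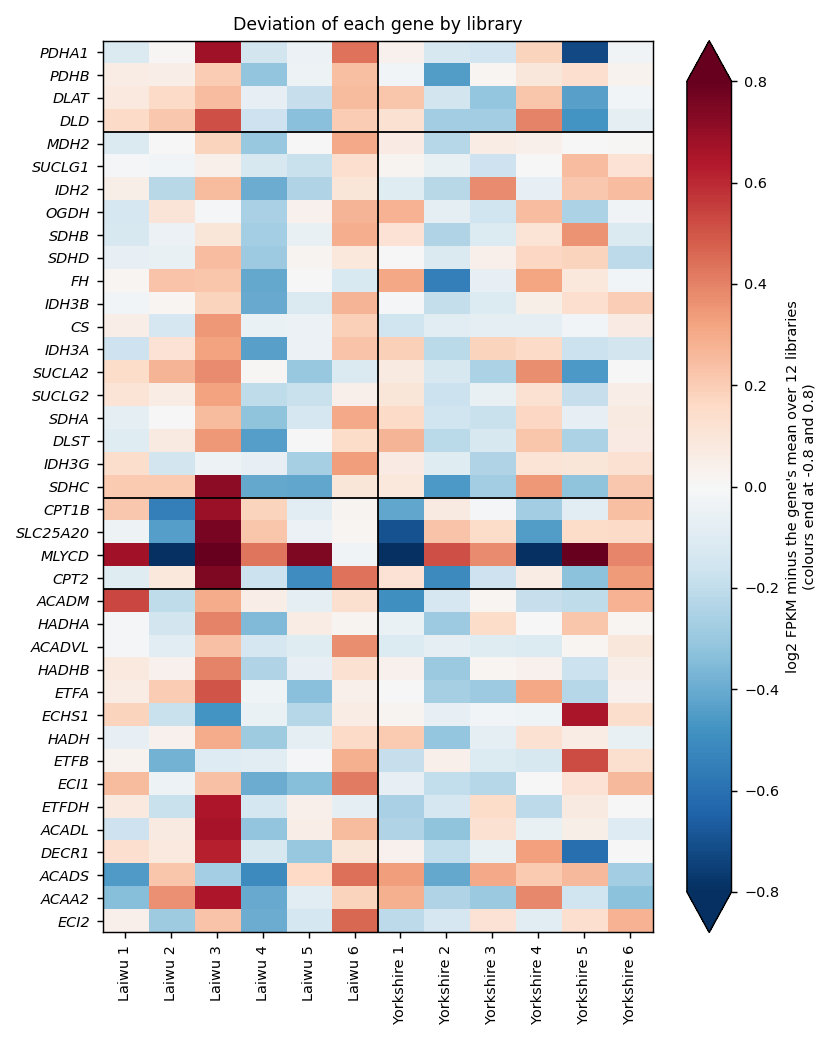
Deviation of each gene (down the page, ordered by role with lines between roles) in each library (across, Laiwu left of Yorkshire), as log2 FPKM minus the gene's mean over the 12 libraries; red is above and blue below, and the colours end at -0.8 and 0.8. Laiwu 3 is red in most lines and Laiwu 4 blue in most, while CPT1B, SLC25A20 and MLYCD are blue in Laiwu 2, Yorkshire 1 and Yorkshire 4.

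Partners of the pathway outside the 39 genes were counted from lists of known enzymes and regulators. For comparison, 49.7% of the 11205 tested genes had a log2 fold change above 0. An unadjusted p under 0.05 was reached by 498 (4.44%) of the 11205 with edgeR, 569 with DESeq2 and 391 with limma. Of 25 tested genes around pyruvate and the cycle, 16 had a log2 fold change above 0, 0 passed an adjusted p of 0.05 (edgeR, Benjamini-Hochberg) and 2 had an unadjusted p under 0.05. By DESeq2 and limma 3 each had such an unadjusted p and 0 were called. The genes of highest level were GOT2, mitochondrial aspartate aminotransferase, with 139 ± 26.3 FPKM in Laiwu, against 127 ± 20.5 FPKM in Yorkshire (mean ± SD, n = 6 each), and CRAT, carnitine acetyltransferase. CRAT had 118 ± 11.3 FPKM in Laiwu, against 127 ± 15.7 FPKM in Yorkshire (mean ± SD, n = 6 each). The 2 genes of small unadjusted p, named after their values were seen, were PC and IDH1. PC, pyruvate carboxylase, which refills the cycle with oxaloacetate, ranged from 16.96 to 42.3 FPKM in Laiwu and from 15.3 to 25.9 FPKM in Yorkshire. IDH1, the cytosolic isocitrate dehydrogenase, ranged from 4.70 to 8.56 FPKM in Laiwu and from 3.55 to 6.16 FPKM in Yorkshire. Both overlapped between breeds.

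Of 29 tested genes of fatty acid activation, other oxidation and its regulators, 23 were above 0, beside 49.7% of all tested genes. None of the 29 passed the adjusted threshold (edgeR, Benjamini-Hochberg). An unadjusted edgeR p under 0.05 was reached by 2, ACAA1 and HSD17B4, beside 4.44% of all tested genes. DESeq2 and limma also called 0 of the 29, with 2 each at that unadjusted p. ACAT1, the acetoacetyl-CoA thiolase, and ACSL1, which activates long fatty acids with CoA, had the highest levels. ACAT1 had 46.2 ± 15.1 FPKM in Laiwu, against 40.6 ± 14.7 FPKM in Yorkshire (mean ± SD, n = 6 each). ACSL1 had 35.6 ± 18.7 FPKM in Laiwu, against 25.9 ± 4.20 FPKM in Yorkshire (mean ± SD, n = 6 each). In Laiwu the SD of ACSL1 came largely from Laiwu 3, at 72.8 FPKM, as the other 5 Laiwu libraries were at 22.8 to 33.4 FPKM. ACAA1 and HSD17B4, enzymes of oxidation in peroxisomes named after their values were seen, overlapped between breeds, with 2.11 to 5.63 FPKM in Laiwu and 1.597 to 3.11 FPKM in Yorkshire for ACAA1. HSD17B4 held 10.9 to 16.7 FPKM in Laiwu and 8.36 to 12.02 FPKM in Yorkshire.

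Of 9 tested adipocyte markers, 8 had a log2 fold change above 0, and the list summed to 81.1 to 258 FPKM in Laiwu and 70.0 to 136 FPKM in Yorkshire. The defining marker ADIPOQ, adiponectin, held 9.54 to 77.2 FPKM in Laiwu and 3.89 to 22.6 FPKM in Yorkshire, and 0 of the 10 listed markers were at 0 in every library. Laiwu 3 had the highest sum, 258 FPKM, and also the highest level of 21 of the 39 genes. Of 10 slow fibre markers, 9 had a log2 fold change below 0, and the list summed to 703 to 2933 FPKM in Laiwu and 1614 to 3455 FPKM in Yorkshire. Laiwu 1 was lowest, at 703 FPKM, and there 10 of 20 cycle genes and 12 of 19 oxidation genes lay above their median over libraries. Of both lists, 0 genes passed an adjusted p of 0.05 by edgeR with Benjamini-Hochberg adjustment, 0 by DESeq2 and 0 by limma, and at an unadjusted p of 0.05 edgeR had 7 of 9 adipocyte and 0 of 10 slow fibre genes. DESeq2 had 7 and limma 5 of the adipocyte genes at that p, and both had 0 of the slow fibre genes. Of all tested genes, 4.44% had such a p by edgeR and 49.7% were above 0. The part of fat cells or fibre types in the members' levels was not tested.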

How the data were processed

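Poly(A) RNA of longissimus dorsi was sequenced in 6 Laiwu and 6 Yorkshire libraries. Per the series' design text, reads were filtered with FastQC and aligned to Sscrofa11.1 with HISAT2 2.2.1. Cutadapt 1.9, edgeR, DESeq2 and StringTie 1.3.4d are listed, with no role, in the submitters' processing notes. The table deposited by the authors holds for each gene and library an FPKM value and a raw count, per the file headers, and its coordinates and gene names were used as they stand. The libraries mark strand with dUTP, per the labels' protocols. The sources used here do not say whether counting used the strand, nor which annotation release served. Of the 39 genes, 16 overlap another listed gene, 2 of them a member on the same strand.

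Genes that averaged 0.5 FPKM or more were tested (11205), and 12066 were left out. The deposited counts were fitted with edgeR 4.0.16 (TMM, robust quasi-likelihood F test) in R 4.3.3, Laiwu against Yorkshire without covariates, with Benjamini-Hochberg adjustment over all tested genes. Standard errors were computed as the fold change over the square root of F. Alternatives were DESeq2 1.42.0, limma 3.58.1 on log2(FPKM + 1) and log2(FPKM + 0.1), other scalings and filters, a block on the library number and leaving out each library. Levels are FPKM, and counting error alone is covered by the limit of 3 counts. Libraries were compared in all 66 pairs, within and across breeds, by a chi-square of their counts over genes with at least 20 counts in the pair, and the lowest value per gene, 25.8, was well above the value of about 1 that sampling noise gives. No pair was therefore read as the same library sequenced again, and all 12 were kept. Whether libraries share an animal cannot be told from this value, as separate preparations may also differ by more than sampling noise.

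The members and gene lists were chosen with earlier results of these data known. All 39 genes are named, with fold changes for the 6 cycle genes (pyruvate dehydrogenase included) and the 6 oxidation genes of smallest edgeR p. Of other pathway lists the 2 genes of highest mean FPKM are named, and any other gene is said to be named after its values were seen. A planned search for motifs in promoters was not run, and no sequence is shown. MPC1, SDHAF3 and ACOT2 of the pathway lists were not analysed here.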

Additional observations from a re-analysis of the deposited data

Results flagged for a closer look

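In 7 of the 112 groups of 6 libraries examined, 1 library stood apart from the other 5 by Dixon's criterion at the 95% level, 5 of them among the 78 groups of the 39 genes. Chance gives about 1 in 20 groups. MLYCD was at 8.88 FPKM in Laiwu 3, with the nearest Laiwu library at 3.18 FPKM. ETFDH was at 30.5 FPKM in Laiwu 3, with the nearest at 20.6 FPKM. In Yorkshire 2, PDHB was at 24.6 FPKM and MDH2 at 180.1 FPKM, below the nearest Yorkshire libraries at 33.1 and 210.0 FPKM. In Yorkshire 5, ECHS1 was at 44.8 FPKM, with the nearest at 31.4 FPKM. The ratio of SUCLG1 to SUCLA2 in FPKM was 7.88 in Yorkshire 5 and 5.21 in the nearest library, and the ratio of SDHB to SDHA was 3.49 in Yorkshire 5 and 2.73 in the nearest.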

How the results depend on the processing

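None of the 39 genes was called under any setting run, though 1 of 39 had an unadjusted p under 0.05 without Yorkshire 6, and DESeq2 called 1 gene of all those tested, where edgeR and limma called 0; the cause was not tested. With each library left out edgeR again called 0 genes. The library numbers did not pair the breeds: deviations of same-numbered libraries correlated at -0.25 to 0.37, and 1 of 6 Laiwu libraries, number 3, correlated best with its own number. The fit with the replicate block called 0 genes and 0 of the 39, and it changed no call. Of the 12 fold changes printed, 0 changed sign under any setting run. Of all 39, 21 changed sign with at least 1 library left out, and 18 kept it in every setting. The median log2 fold change of the cycle genes ran from -0.04 to 0.06 with 1 library left out, and that of the oxidation genes from 0.0032 without Laiwu 3 to 0.14 without Laiwu 4, with 0.06 without Yorkshire 3. The breed difference in the balance of oxidation over cycle genes was 0.05, or 0.03 with MLYCD left out, an alternative chosen after seeing the data, and 0.09 without the pyruvate dehydrogenase genes. The lowest count was 100, so no level lay near the limit of 3 counts. The intervals of the differences reflect the spread between 6 libraries per breed, and the cause of the lack of calls was not tested.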
